A study of Arabidopsis thaliana with 30 samples.

Results

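Photolyases and nucleotide excision repair are the main routes by which Arabidopsis thaliana removes the pyrimidine dimers that ultraviolet light leaves in DNA. Both were followed through 10 genes chosen by function from 68575 identifiers: the photolyases PHR1 (AT1G12370) and UVR3 (AT3G15620), the damage recognition genes DDB2 (AT5G58760) and RAD4 (AT5G16630), the transcription-coupled repair genes CHR8 (AT2G18760) and CSA-1 (AT1G27840), the helicase gene UVH6 (AT1G03190), and the nuclease genes UVH3 (AT3G28030), UVH1 (AT5G41150) and ERCC1 (AT3G05210). All 10 passed the filter on low counts, among 21374 genes tested.

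The 30 RNA sequencing libraries came from seedlings, labelled as whole, that were either Col-0, the wild type, or Δlinda, a mutant of the long noncoding RNA gene LINDA, all 14 days old and grown on agar with 10 h of light per day. Seedlings were kept for 3 h in liquid medium with Zeocin at 80 µg/ml or without it as mock, Zeocin being a relative of bleomycin that cuts DNA strands. Others received 2 kJ of UV-C, which forms pyrimidine dimers, and were harvested 3 h later, or stayed in normal light, for which the titles give no time. There were 4 libraries each of mock Col-0, Zeocin Δlinda, normal light and UV-C in either genotype, and 3 each of mock Δlinda and Zeocin Col-0. Mock Col-0 replicate 1 has the mutant's genotype tag but a Col-0 title, by which it was grouped, and without it CHR8 stayed the 1 member called for Zeocin in Col-0. The labels give neither the extent of the deletion, nor whether Δlinda is 1 line, nor whether replicates came from separate plates, so p-values measure only the spread between these samples.

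A photolyase binds a dimer and splits it in place with the energy of blue or near-ultraviolet light, 1 enzyme for cyclobutane dimers and another for the second kind of pyrimidine photoproduct. Nucleotide excision repair works without light: a recognition protein or a stalled RNA polymerase marks the lesion, the TFIIH complex opens the helix, a pair of nucleases cuts the strand on either side, and the gap is filled and ligated. Plants in light rely mostly on photolyases for dimers, and excision repair serves in the dark and for bulky lesions of other kinds. Neither route is the main one for the strand breaks that Zeocin makes.

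Replicate 1 of normal light Δlinda held 7.94 M estimated counts and the other 29 libraries 12.94 M to 15.13 M, and the 10 genes had 15 to 636 counts per library. Levels are in CPM, counts scaled to a common library size after TMM normalisation. AT3G00800, taken as the LINDA locus from general knowledge, had 74 to 148 counts after UV-C in Col-0 against 14 to 25 in Δlinda, and 506 to 779 against 135 to 444 after Zeocin. Without the extent of the deletion this checks no label. The labelled tissue did not hold for its root part in every library: EXPA7, a root hair gene, had 0 counts in all 16 normal light and UV-C libraries and 54 to 176 in the 14 mock and Zeocin libraries. The root markers CASP1, PIN2, EXPA7 and COBL9 summed to between 0.0 and 1.12 CPM in the former and to between 45.2 and 72.7 CPM in the latter, and SCR, also active in leaves, was detected in all 30. In bulk samples, fewer cells of a type and less RNA per cell cannot be told apart. Comparisons of UV-C with normal light and of Zeocin with mock each stayed within one of these kinds of library.

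CHR8 rose after both treatments, and the other members called for a treatment were called for UV-C. In Col-0, UVR3 and DDB2 differed more between the 2 controls than any member did after UV-C. They were higher in mock than in normal light by 1.70 and 1.23 on the log2 scale. In Δlinda they were higher by 1.09 and 1.06, which did not exceed the fall of RAD4 after UV-C there, 1.10. After UV-C, RAD4 fell by 1.07 on the log2 scale in Col-0 and by 1.10 in Δlinda, DDB2 and PHR1 fell less, and ERCC1 and CHR8 rose in both genotypes. Of these calls, those of PHR1 in both genotypes and of CHR8 in Δlinda ended in some fits that left out 1 library. After Zeocin, CHR8 rose by 1.29 in Col-0 and by 0.89 in Δlinda, and it was the single member to pass the test in either genotype. Tests were edgeR's quasi-likelihood F test with Benjamini-Hochberg adjustment over all genes tested and a threshold of 0.05. For UV-C, 7 of 10 members passed in Col-0, where 68.4% of all tested genes did, and 7 of 10 in Δlinda, against 68.2%. In Col-0, 4 rose and 3 fell, against 34.4% and 34.0% of all tested genes, and in Δlinda 3 rose and 4 fell, against 34.6% and 33.6%. For Zeocin, 1 of 10 passed in each genotype, against 5.24% of all tested genes in Col-0 and 2.84% in Δlinda. The shares for UV-C were near the background of all genes. At an unadjusted edgeR p under 0.05, CHR8 was again the 1 member of 10 for Zeocin in each genotype. Of the 21374 tested genes, 3385 in Col-0 and 2541 in Δlinda reached that p, so 1 of 10 was no more than the background. By DESeq2, which called 1315 and 776 of 31642 genes, CHR8 was also the 1 member called in each genotype. The UV-C calls of RAD4, DDB2 and ERCC1 in both genotypes, and of CHR8 and UVH6 in Col-0, held in each fit that left out 1 library. The median absolute log2 fold after UV-C in Col-0 was 0.41 over the members and 0.85 over all tested genes, and after Zeocin 0.05 and 0.19.

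**Figure D1:**
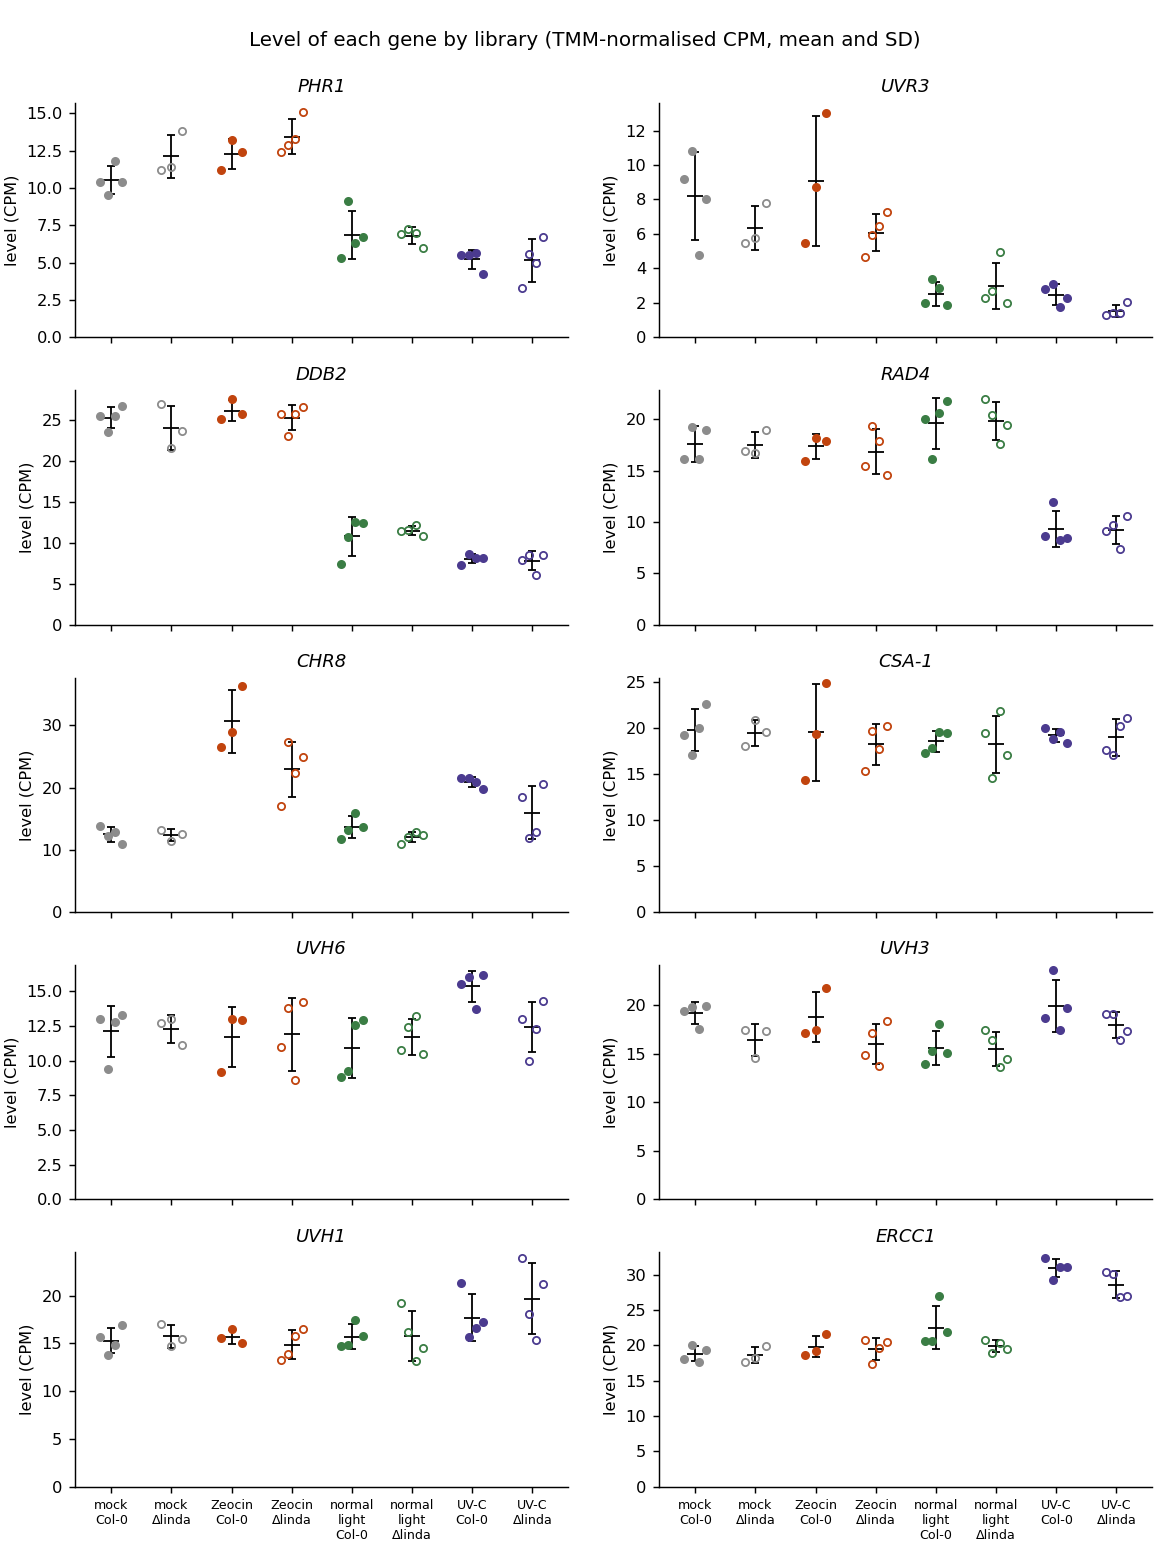
Level of each of the 10 genes in every library, in CPM after TMM normalisation (y axis from 0) for the 8 groups on the x axis. Filled points are Col-0 and open points Δlinda libraries, and bars are the mean and SD. RAD4 is lower in the 8 UV-C libraries than in all others, and PHR1 and DDB2 are higher in the mock and Zeocin libraries than in the normal light and UV-C libraries. CHR8 has its highest group means after Zeocin, with ranges of Zeocin Δlinda and UV-C Col-0 that overlap.

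**Figure D2:**
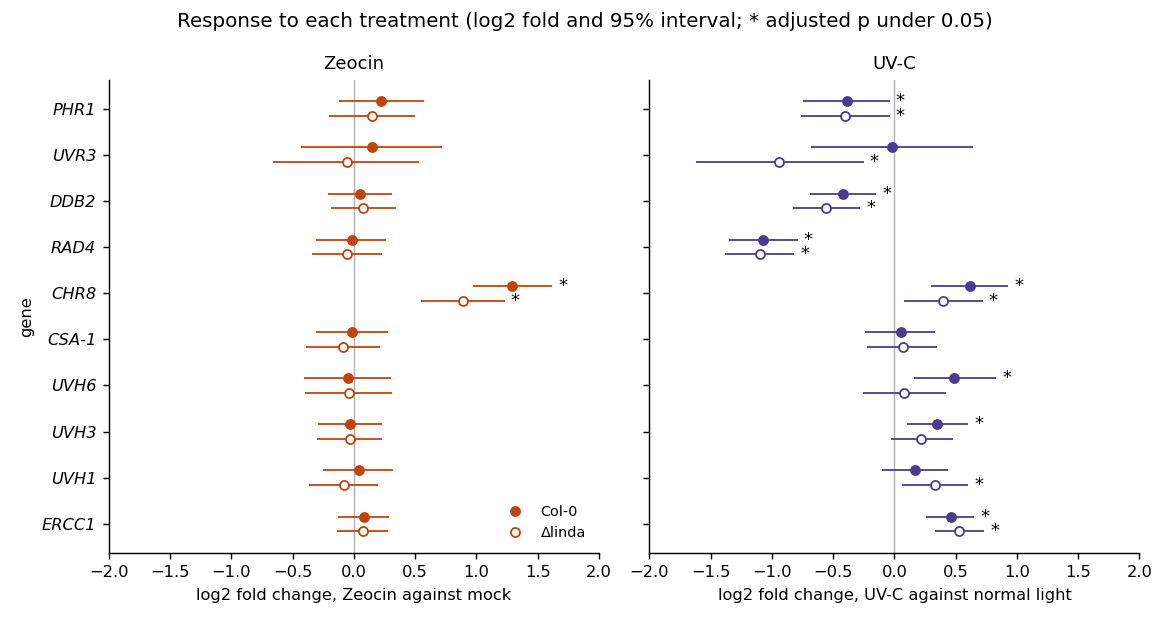
Log2 fold change (x axis) of each gene (y axis) after Zeocin against mock and after UV-C against normal light, with 95% confidence intervals from edgeR. Filled points are Col-0, open points Δlinda, and stars mark an adjusted p under 0.05. CHR8 alone carries a star after Zeocin, while RAD4, DDB2 and PHR1 (the last with intervals close to 0) lie below 0 and CHR8 and ERCC1 above 0 after UV-C in both genotypes.

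PHR1 encodes the photolyase of cyclobutane dimers. Its level was 5.32, 9.13, 6.35 and 6.69 CPM in the normal light Col-0 libraries and 5.52, 5.50, 5.62 and 4.26 CPM after UV-C. In Δlinda it was 6.92, 7.29, 7.0 and 5.98 CPM in normal light and 3.31, 5.59, 4.99 and 6.71 CPM after UV-C. The ranges overlapped in both genotypes, with replicate 2 of normal light Col-0 far above the rest of its group. By edgeR the log2 fold was -0.39 ± 0.18 (SE, adjusted p = 0.047) in Col-0 and -0.40 ± 0.18 (adjusted p = 0.047) in Δlinda. Both calls lay just inside the threshold and ended when single libraries were left out. In Col-0 the adjusted p was 0.26 without normal light replicate 2 (log2 fold -0.23), 0.15 without UV-C replicate 4, 0.063 without normal light replicate 4, 0.056 without UV-C replicate 1 or 2, and 0.051 without UV-C replicate 3. In Δlinda it was 0.15 without UV-C replicate 1 (log2 fold -0.28), 0.11 without normal light replicate 2, 0.083 without replicate 3 of normal light or of UV-C, and 0.072 without normal light replicate 1. DESeq2 called neither change (adjusted p = 0.10 and 0.08). After Zeocin, PHR1 gave log2 folds of 0.22 (95% interval -0.12 to 0.57) for Col-0 and 0.15 (-0.20 to 0.50) for Δlinda, neither of which passed. PHR1 overlaps AT1G12360 on the other strand in the TAIR10.1 annotation, and the labels give no strand setting, so reads of both genes cannot be told apart without it.

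UVR3 encodes the photolyase of the second photoproduct and had the lowest group mean per length in the normal light and UV-C groups, at 1.10 ± 0.31 CPM per kb of exon (SD, n = 4) in normal light Col-0 and 1.09 ± 0.26 (n = 4) after UV-C. The UVR3 level was 2.02, 3.36, 2.84 and 1.86 CPM in normal light Col-0 and 2.80, 3.11, 1.75 and 2.26 CPM after UV-C. In Δlinda it was 2.26, 2.69, 4.93 and 1.99 CPM in normal light and 1.32, 1.40, 1.39 and 2.08 CPM after UV-C. These levels rest on 15 to 50 counts per library, and the ranges overlapped in both genotypes. By edgeR the Col-0 log2 fold of -0.02 (95% interval -0.68 to 0.64) did not pass. UVR3 fell in Δlinda, with a log2 fold of -0.94 ± 0.33 (adjusted p = 0.015), but without normal light replicate 3, the library at 4.93 CPM, this was -0.58 with adjusted p = 0.14. The difference between the genotypes' UV-C responses was -0.91 ± 0.46 on the log2 scale and did not pass (adjusted p = 0.68). The fold after Zeocin was not called in either genotype, with 95% intervals from -0.43 to 0.72 (Col-0) and from -0.66 to 0.53 (Δlinda). UVR3 was also the most variable member between replicates, with a biological coefficient of variation of 25.9%, against 8.50% for ERCC1, the least variable.

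DDB2 encodes the subunit that places the CUL4-DDB1 ubiquitin ligase on ultraviolet lesions in the genome at large. Its level was 7.43, 10.7, 12.5 and 12.4 CPM in normal light Col-0 and 7.29, 8.61, 8.16 and 8.17 CPM after UV-C. In Δlinda it was 11.4, 11.5, 12.1 and 10.8 CPM in normal light and 7.94, 8.54, 6.10 and 8.55 CPM after UV-C. The ranges were apart in Δlinda and overlapped in Col-0, where normal light replicate 1 was as low as the UV-C libraries. DDB2 fell in both genotypes, by 0.42 ± 0.13 on the log2 scale in Col-0 (edgeR, adjusted p = 0.0065) and by 0.56 ± 0.13 in Δlinda (adjusted p = 0.00054). After Zeocin the log2 folds were 0.05 (95% interval -0.21 to 0.31) for Col-0 and 0.07 (-0.19 to 0.34) for Δlinda, with no call.

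RAD4 is the plant counterpart of human XPC, which detects distorted helices in the genome at large. Its level was 20.0, 16.1, 20.6 and 21.8 CPM in normal light Col-0 and 8.69, 12, 8.25 and 8.43 CPM after UV-C. In Δlinda it was 22.0, 20.4, 17.6 and 19.5 CPM in normal light and 9.10, 9.69, 7.39 and 10.6 CPM after UV-C. Every UV-C library was below every normal light library. RAD4 had the lowest fold of the 10 genes after UV-C in both genotypes, 0.476 of the normal light level in Col-0 (log2 fold -1.07 ± 0.14, edgeR adjusted p = 4.5e-08) and 0.466 in Δlinda (-1.10 ± 0.14, adjusted p = 2.9e-08). In the mock and Zeocin libraries RAD4 stood between 14.6 and 19.4 CPM, and the Zeocin log2 folds of -0.02 (95% interval -0.31 to 0.26) for Col-0 and -0.06 (-0.34 to 0.23) for Δlinda did not pass. Within each library, the ratio of DDB2 to RAD4, both per kb of exon, was 0.784 ± 0.179 (n = 4) in normal light Col-0 and 1.24 ± 0.178 (n = 4) after UV-C, with ranges of 0.526 to 0.935 and 1.02 to 1.40. In mock Col-0 the ratio was 2.05 ± 0.245 (n = 4) and after Zeocin 2.13 ± 0.0943 (n = 3). DDB2 was thus the less abundant of the pair per length in the normal light libraries and the more abundant in all others.

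CHR8 encodes the counterpart of human CSB, the remodelling ATPase that acts at RNA polymerase stalled on a lesion. Its level was 13.9, 12.2, 12.9 and 11 CPM in mock Col-0 and 26.6, 29.0 and 36.4 CPM after Zeocin. In Δlinda it was 13.2, 11.4 and 12.5 CPM in mock and 17.1, 27.3, 22.4 and 24.9 CPM after Zeocin. Every Zeocin library was above every mock library in both genotypes. CHR8 rose 2.45-fold in Col-0 (log2 fold 1.29 ± 0.16, edgeR adjusted p = 6.5e-07) and 1.85-fold in Δlinda (0.89 ± 0.16, adjusted p = 0.00065). Both calls held in each fit that left out 1 library.

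CHR8 also rose after UV-C. The UV-C Col-0 libraries held 21.5, 21.6, 20.9 and 19.8 CPM of CHR8, all above the 11.7, 13.2, 16.0 and 13.6 CPM of normal light. In Δlinda, UV-C replicates 1 and 4 stood at 18.5 and 20.6 CPM, above the normal light libraries at 11, 12, 12.9 and 12.4 CPM, while UV-C replicates 2 and 3 stood among them at 11.9 and 12.9 CPM. By edgeR the log2 fold was 0.62 ± 0.15 in Col-0 (adjusted p = 0.00078) and 0.40 ± 0.16 in Δlinda (adjusted p = 0.024). The Δlinda call ended without UV-C replicate 4 (0.26, adjusted p = 0.15), UV-C replicate 1 (0.28, adjusted p = 0.14) or normal light replicate 1 (0.37, adjusted p = 0.06). Across the 2 kinds of library, with and without root RNA, the Zeocin response exceeded the UV-C response by 0.68 ± 0.22 in Col-0 (adjusted p = 0.011, and 0.052 without Zeocin Col-0 replicate 3), and by 0.49 ± 0.23 in Δlinda, which did not pass (adjusted p = 0.07).

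CSA-1 encodes a repeat protein that joins the same ubiquitin ligase to stalled polymerase, and its group means spanned less than those of any other member. They ran from 18.2 CPM in Zeocin Δlinda and normal light Δlinda to 19.7 CPM in mock Col-0, and no neighbouring groups in that order had ranges apart. Its log2 folds were -0.02 and -0.09 after Zeocin and 0.05 and 0.07 after UV-C, in Col-0 and Δlinda, and none passed. The widest of those 4 intervals ran from -0.39 to 0.21. Part of its count is uncertain: in 6 libraries the CSA-1 estimate was not whole, and in all 6 it added up with that of its near copy CSA-2 (AT1G19750) to a whole number within 0.002, so the reads of both genes were split between them. The CHR8 to CSA-1 ratio, per kb of exon, was 0.249 ± 0.0424 (n = 4) in mock Col-0 and 0.622 ± 0.0837 (n = 3) after Zeocin, and 0.284 ± 0.0236 (n = 4) in normal light and 0.423 ± 0.014 (n = 4) after UV-C.

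**Figure D3:**
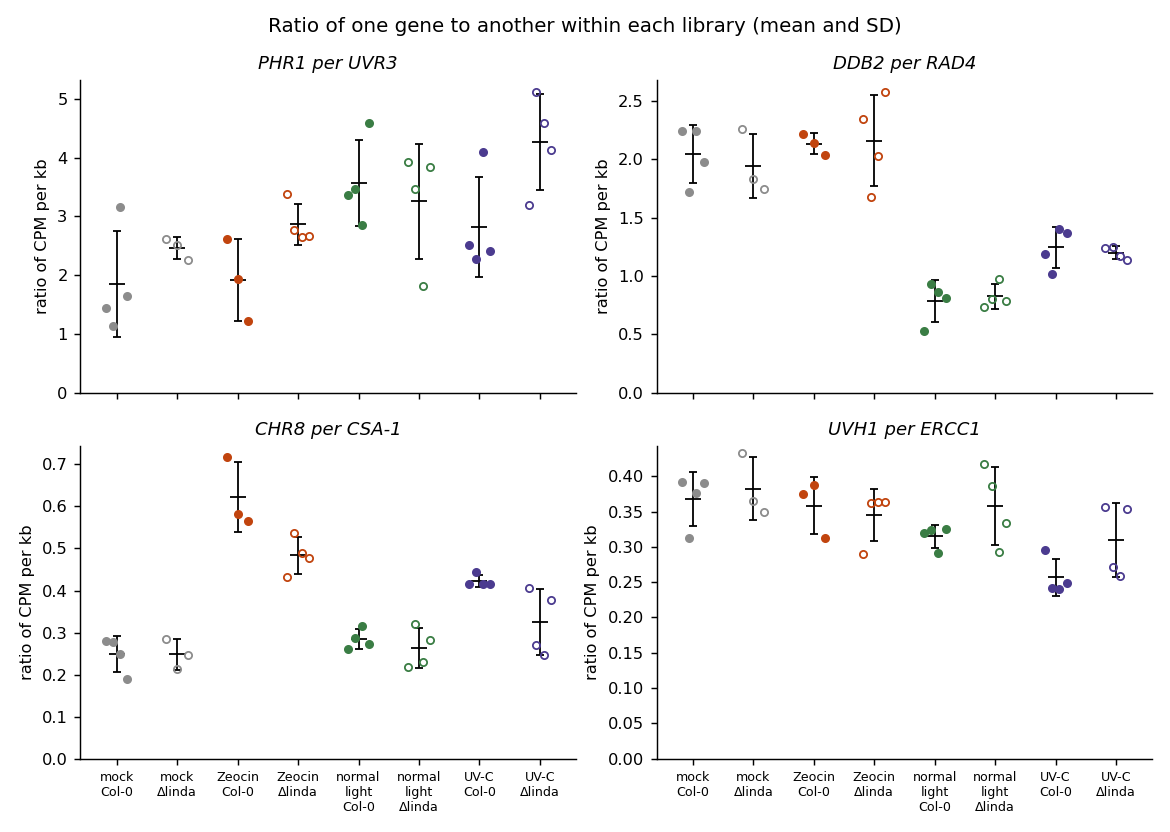
Ratio of 1 gene to another within each library (y axis from 0, ratio of CPM per kb of exon) for the 8 groups on the x axis. Filled points are Col-0 and open points Δlinda libraries, and bars are the mean and SD. The CHR8 to CSA-1 ratio has its highest group means after Zeocin, with ranges of Zeocin Δlinda and UV-C Col-0 that overlap. The DDB2 to RAD4 ratio lies below 1 in the 8 normal light libraries and above 1 in the others.

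UVH6 encodes the counterpart of human XPD, a helicase of TFIIH that opens the helix around a lesion. Its level was 8.81, 9.23, 12.6 and 12.9 CPM in normal light Col-0 and 15.5, 16.0, 13.7 and 16.2 CPM after UV-C, with ranges apart. In Δlinda it was 10.8, 12.4, 13.2 and 10.5 CPM in normal light and 13.0, 10.0, 12.3 and 14.3 CPM after UV-C, with ranges that overlapped. UVH6 rose in Col-0 by 0.49 ± 0.17 on the log2 scale (edgeR, adjusted p = 0.0094), and in Δlinda its log2 fold of 0.08 (95% interval -0.26 to 0.42) did not pass. The difference between the genotypes' responses, -0.42 ± 0.23, did not pass either (adjusted p = 0.70). After Zeocin, UVH6 gave -0.05 (95% interval -0.41 to 0.30) for Col-0 and -0.04 (-0.40 to 0.31) for Δlinda, with no call.

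The nuclease genes gave small positive folds after UV-C. UVH3 is the counterpart of human XPG, which cuts on one side of the lesion. Its level was 13.9, 15.3, 18.0 and 15.1 CPM in normal light Col-0 and 18.7, 23.6, 17.4 and 19.7 CPM after UV-C, and 17.4, 16.4, 13.6 and 14.4 CPM against 19.1, 19.1, 16.4 and 17.3 CPM in Δlinda. The ranges overlapped in both genotypes. By edgeR, UVH3 rose in Col-0 by 0.35 ± 0.12 on the log2 scale (adjusted p = 0.013), a call that ended without UV-C replicate 2 (0.26, adjusted p = 0.075), and gave 0.22 in Δlinda without passing (adjusted p = 0.11).

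UVH1, the counterpart of human XPF, cuts on the other side as a partner of ERCC1. The UVH1 level was 14.7, 14.8, 17.5 and 15.8 CPM in normal light Col-0 and 21.3, 15.7, 16.6 and 17.2 CPM after UV-C, and 19.2, 16.2, 13.2 and 14.5 CPM against 24.0, 18.1, 15.4 and 21.2 CPM in Δlinda. Ranges overlapped in both genotypes. The log2 fold was 0.17 (95% interval -0.10 to 0.44) in Col-0 without a call, and UVH1 rose by 0.33 ± 0.13 in Δlinda (edgeR, adjusted p = 0.031). That call ended without UV-C replicate 1 (0.17, adjusted p = 0.27), UV-C replicate 4 (adjusted p = 0.076), normal light replicate 3 (adjusted p = 0.12) or normal light replicate 4 (adjusted p = 0.082). UVH1 overlaps AT5G41140 and AT5G41160 on the other strand in the TAIR10.1 annotation, with the same limit as for PHR1.

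ERCC1, the partner of UVH1, rose in both genotypes after UV-C. Its level was 20.6, 20.6, 27.0 and 21.9 CPM in normal light Col-0 and 32.4, 29.2, 31.1 and 31.1 CPM after UV-C. In Δlinda it was 20.8, 18.9, 20.3 and 19.5 CPM in normal light and 30.4, 30.1, 26.9 and 27.0 CPM after UV-C. Every UV-C library was above every normal light library of its genotype. The folds of ERCC1 were 1.37 in Col-0 (log2 fold 0.46 ± 0.10, edgeR adjusted p = 0.00011) and 1.44 in Δlinda (0.53 ± 0.10, adjusted p = 2.1e-05). ERCC1 was the most abundant member per length after UV-C, at 17.2 ± 0.738 CPM per kb of exon (n = 4) in Col-0, with UVH1 at 4.43 ± 0.621 (n = 4). The UVH1 to ERCC1 ratio was 0.315 ± 0.016 (n = 4) in normal light Col-0 and 0.257 ± 0.0262 (n = 4) after UV-C, with ranges of 0.291 to 0.325 and 0.240 to 0.296 that overlapped. After Zeocin, none of UVH3, UVH1 and ERCC1 was called, and their 95% intervals lay within -0.37 to 0.32 on the log2 scale in both genotypes.

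Other features moved with the UV-C comparison. Chloroplast genes took 1.61% to 3.39% of counts in the 8 UV-C libraries and 0.0871% to 1.53% in the other 22, and the RNA genes AT3G41768 and AT3G06365 together took 6.12% to 12.8% and 0.325% to 1.65%. Summed levels of the shoot markers RBCS1A, CAB1 and RBCS2B were 46300 to 64200 CPM in normal light and 25200 to 41000 CPM after UV-C. Without the chloroplast, mitochondrial and those RNA genes, 6 members were called in each genotype, PHR1 being the one lost (adjusted p = 0.062 and 0.063). Beyond that, the part of these shifts in the members' values was not tested.

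No member differed between the genotypes by the test. For Δlinda against Col-0, 0 of 10 members passed in mock, Zeocin, normal light and UV-C by edgeR, where 0.0234%, 0.248%, 0.192% and 0.0234% of all tested genes did. For the interactions of genotype with Zeocin and with UV-C, 0 of 10 passed, against 0.0421% and 0.0374% of all tested genes. DESeq2 called 0 members in each of these 6 comparisons as well. At an unadjusted edgeR p under 0.05, CHR8 was the 1 member of 10 in the Zeocin and in the UV-C libraries. Of the 21374 tested genes, 2762 and 1487 reached that p there, so 1 of 10 was near the background of all genes. No member reached it in the other 4 comparisons. CHR8 stood at 30.7 ± 5.10 CPM (n = 3) in Zeocin Col-0 and 22.9 ± 4.38 CPM (n = 4) in Zeocin Δlinda, a log2 difference of -0.42 ± 0.16 (adjusted p = 0.25) with ranges that overlapped. After UV-C it was 20.9 ± 0.818 CPM (n = 4) and 16.0 ± 4.24 CPM (n = 4), a difference of -0.39 ± 0.15 (edgeR, adjusted p = 0.64) with ranges that overlapped. UV-C Δlinda replicates 2 and 3 stood at 11.9 and 12.9 CPM, and replicates 1 and 4 at 18.5 and 20.6 CPM. The shoot markers summed to 34300 and 41000 CPM in replicates 2 and 3, and to 25600 and 26400 CPM in 1 and 4. The part of this in the CHR8 difference was not tested. The interaction of genotype and Zeocin for CHR8 was -0.40 (95% interval -0.87 to 0.06). UVR3 had the widest intervals, from -1.16 to 0.00 after Zeocin and from -1.36 to 0.02 after UV-C, so that differences of that size are not shown to be absent. The mock ranges of UVH3 were narrowly apart, with 17.5 to 19.9 CPM for Col-0 and 14.5 to 17.4 CPM for Δlinda. Its log2 difference of -0.23 (95% interval -0.49 to 0.04) did not pass. How many of all tested genes had mock ranges apart was not counted, so nothing is read from this.

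The Zeocin and UV-C responses were also compared with each other in Col-0 and in Δlinda. This contrast crosses the 2 kinds of library, since the Zeocin response was measured in liquid medium with root markers at 45.2 CPM or more and the UV-C response with root markers at 1.12 CPM or less, and the part of that in the differences cannot be told apart. In Col-0, 5 of 10 members differed between the responses, against 55.5% of all tested genes, and in Δlinda 3 of 10, against 54.1%. RAD4 had the largest difference in both, 1.05 ± 0.19 (edgeR, adjusted p = 3.5e-05) and 1.05 ± 0.20 (adjusted p = 4.1e-05). DDB2 differed by 0.63 ± 0.19 in Δlinda (adjusted p = 0.0052), and in Col-0 by 0.47 ± 0.18 (adjusted p = 0.032). ERCC1 differed the other way, by -0.46 ± 0.14 in Δlinda (adjusted p = 0.0071) and -0.38 ± 0.14 in Col-0 (adjusted p = 0.024).

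Most of the Col-0 calls in that comparison rested on single libraries. The DDB2 call in Col-0 ended without normal light replicate 3 (adjusted p = 0.087) or 4 (0.083), UV-C replicate 1 (0.066), mock replicate 2 (0.057) or Zeocin replicate 2 (0.071). That of ERCC1 ended without normal light replicate 1 (adjusted p = 0.053) or 2 (0.054) or Zeocin replicate 1 (0.066) or 2 (0.055). PHR1, at 0.62 ± 0.24 (edgeR, adjusted p = 0.033), lost its call without normal light replicate 2 (0.11), UV-C replicate 4 (0.076), mock replicate 2 (0.058), Zeocin replicate 2 (0.074) or Zeocin replicate 3 (0.053). In Col-0, UVH6 gave -0.54 (adjusted p = 0.055) and passed without replicate 3 or 4 of normal light, UV-C replicate 3, mock replicate 2 or Zeocin replicate 2 or 3, with adjusted p between 0.022 and 0.046. UVH3 gave -0.38 (adjusted p = 0.069) and passed without normal light replicate 3, UV-C replicate 3 or Zeocin replicate 3, with adjusted p between 0.026 and 0.043. In Δlinda, leaving out 1 library brought in PHR1 (without normal light replicate 4, UV-C replicate 4 or mock replicate 3), CHR8 (without UV-C replicate 1 or 4 or Zeocin replicate 1) and UVH1 (without replicate 1 of normal light or replicate 3 of UV-C), with adjusted p between 0.016 and 0.046.

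The controls of the treatments differed from each other for the photolyases and DDB2, as they did for 55.1% of all tested genes in Col-0 and 46.6% in Δlinda. UVR3 was at 8.21 ± 2.57 CPM (n = 4) in mock Col-0 and 2.52 ± 0.707 CPM (n = 4) in normal light Col-0, a 3.26-fold difference (log2 fold 1.70 ± 0.29, edgeR adjusted p = 1.3e-05). DDB2 was at 25.4, 23.5, 25.4 and 26.7 CPM in mock Col-0, above the 7.43 to 12.5 CPM of normal light, a 2.34-fold difference (log2 fold 1.23 ± 0.13, adjusted p = 1.8e-09). PHR1 was at 10.5 ± 0.93 CPM (n = 4) and 6.87 ± 1.61 CPM (n = 4), a 1.53-fold difference (0.62 ± 0.17, adjusted p = 0.0022). In Δlinda the log2 folds were 1.09 ± 0.31 for UVR3 (adjusted p = 0.0045), 1.06 ± 0.13 for DDB2 (adjusted p = 1.1e-07) and 0.83 ± 0.18 for PHR1 (adjusted p = 0.00025). For these 3 genes the ranges of mock and normal light were apart in both genotypes, as they were for ERCC1 in Col-0. How many of all tested genes had ranges apart between the controls was not counted, so nothing is read from this.

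Of all members, 5 of 10 passed in Col-0 between the controls, against 55.1% of all tested genes, and 3 of 10 in Δlinda, against 46.6%. Neither share was above that of all genes, so nothing particular to the members is read from these counts. The median absolute log2 fold was 0.21 over the members and 0.52 over all tested genes in Col-0, and 0.10 and 0.47 in Δlinda. Beside PHR1, UVR3 and DDB2, the members called in Col-0 were UVH3 and ERCC1. UVH3 was higher in mock by 0.30 ± 0.12 (edgeR, adjusted p = 0.038) and ERCC1 lower by 0.26 ± 0.10 (adjusted p = 0.022), and both calls ended without single libraries. That of UVH3 ended without normal light replicate 1 (adjusted p = 0.12), 2 (0.071) or 4 (0.08) or mock replicate 1 (0.067), 2 (0.074) or 4 (0.08), and that of ERCC1 without normal light replicate 3 (0.16) or mock replicate 1 (0.055) or 3 (0.061). RAD4, CHR8, CSA-1, UVH6 and UVH1 were not called in either genotype. Mock and normal light seedlings differed in liquid medium and, by the markers above, in root RNA, and the harvest time of normal light seedlings is not given in their titles. The shoot markers summed to 17800 to 22800 CPM in mock Col-0 and to 48400 to 55400 CPM in normal light Col-0, and all 3 were called lower in mock in both genotypes (median log2 fold -0.99 and -1.02). The part of each in these differences cannot be told apart. DDB2, UVR3 and PHR1 levels in Zeocin libraries, at 25.1 to 27.5, 5.49 to 13.0 and 11.2 to 13.2 CPM in Col-0, overlapped with those of mock.

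**Figure D4:**
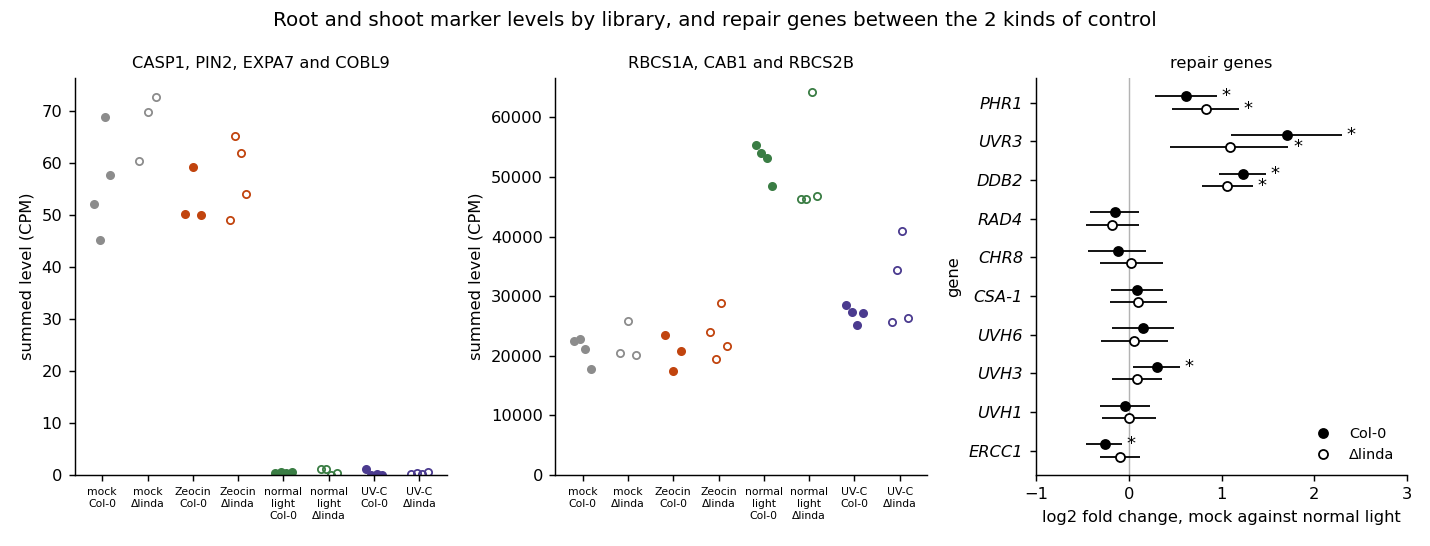
Summed level of 4 root markers (left) and 3 shoot markers (middle) in each library (y axis from 0, CPM) for the 8 groups, and log2 fold change of the 10 repair genes between mock and normal light with 95% intervals from edgeR (right; stars mark an adjusted p under 0.05). Filled points are Col-0 and open points Δlinda. Root markers sum to at most 1.12 CPM in the normal light and UV-C libraries and to 45.2 CPM or more in the others, and PHR1, UVR3 and DDB2 carry stars in both genotypes.

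Per length, the members were ordered differently in the 2 controls. In mock Col-0 DDB2, ERCC1 and CSA-1 led, at 10.8 ± 0.556, 10.4 ± 0.595 and 10.0 ± 1.16 CPM per kb of exon (n = 4 each), and CHR8 was last at 2.46 ± 0.238. Normal light Col-0 had ERCC1 first at 12.5 ± 1.69 CPM per kb, CSA-1 at 9.41 ± 0.582, RAD4 at 5.92 ± 0.731 and DDB2 at 4.60 ± 1.02 (n = 4 each). UVR3 was last there. The per-library ratio of PHR1 to UVR3 was 1.85 ± 0.906 (n = 4) in mock Col-0 and 3.57 ± 0.73 (n = 4) in normal light Col-0, with ranges of 1.13 to 3.17 and 2.86 to 4.59 that overlapped. The exon lengths are those of TAIR10.1, and the transcript set behind the counts may differ.

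Beyond the 10 genes, 49 listed genes of the same pathways were all tested. After Zeocin in Col-0, 4 of the 49 rose by edgeR, where 4.05% of all tested genes did, and in Δlinda 4 rose and 1 fell, against 2.38% and 0.463%. After UV-C in Col-0, 16 rose and 14 fell, against 34.4% and 34.0% of all tested genes, and in Δlinda 12 rose and 17 fell, against 34.6% and 33.6%. The UV-C counts were near or below those shares of all genes, and nothing particular to the pathway is read from them or from the counts of its lists below. Median log2 folds of the list were 0.04 and 0.02 after Zeocin and -0.05 and -0.05 after UV-C, beside medians of 0.00 to 0.01 in size over all tested genes.

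Gap filling and ligation, with 12 genes, held 3 of the 4 that rose after Zeocin in Col-0, and these were large subunits of RPA, the complex that covers single-stranded DNA. RPA1E rose by 4.25 ± 0.25 on the log2 scale (edgeR, adjusted p = 5.4e-14), RPA1C by 1.85 ± 0.18 (adjusted p = 9.8e-09) and RPA1A by 1.57 ± 0.14 (adjusted p = 1.7e-09). RPA1A also rose after UV-C, by 1.56 ± 0.14 (adjusted p = 6.7e-11), whereas RPA1E gave 0.14 ± 0.31 there without a call (adjusted p = 0.71). After UV-C in Col-0, 4 of these 12 rose and 2 fell (34.4% and 34.0% of all tested genes), and RPA2B, a middle subunit, rose by 0.78 ± 0.17 (adjusted p = 0.00013).

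TFIIH, with 13 genes, held the remaining riser after Zeocin, CDKD;2, a kinase gene of the complex, at 1.34 ± 0.14 in Col-0 (edgeR, adjusted p = 3e-08) and 0.95 ± 0.15 in Δlinda (adjusted p = 3.9e-05). After UV-C in Col-0, 3 of the 13 rose and 5 fell, beside the same 34.4% and 34.0%. XPB2, a second helicase of the complex, rose by 0.92 ± 0.13 (adjusted p = 2.7e-07), and TFB4 and TFB1-3 had log2 folds of -0.86 ± 0.16 (adjusted p = 2.1e-05) and -0.83 ± 0.13 (adjusted p = 2.6e-06). The UV-C folds of CDKD;2, -0.30 in Col-0 and -0.27 in Δlinda, did not pass.

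Among 13 recognition and ubiquitin ligase genes, 7 rose and 2 fell after UV-C in Col-0 (34.4% and 34.0% of all tested genes), and 6 rose and 2 fell in Δlinda (34.6% and 33.6%). CEN2, a centrin that partners the RAD4 protein, had 2 counts in all over the 4 normal light Col-0 libraries and 3 over those of Δlinda. After UV-C it had 66 to 94 counts per Col-0 library, and the ratio to normal light was 162 with a 95% counting interval of 44.4 to 1340 (322 against 2 counts). In Δlinda, 91 to 130 counts per library gave a ratio of 121 (41.1 to 589). CEN2 had 172 to 302 counts in the mock and Zeocin libraries, and its log2 folds after Zeocin, -0.25 ± 0.23 and 0.10 ± 0.23, did not pass. CEN1, another centrin, rose after UV-C by 1.34 ± 0.15 in Col-0 (edgeR, adjusted p = 4.6e-09). UVSSA, which in human cells acts with CSA and with CSB, the counterpart of CHR8, rose by 0.91 ± 0.15 in Col-0 (edgeR, adjusted p = 4.2e-06). RAD23C, of a family that binds RAD4, fell by 1.13 ± 0.12 in Col-0 (adjusted p = 7.4e-10) and by 1.24 ± 0.12 in Δlinda (adjusted p = 1.2e-10).

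Among the 4 other genes of the photolyase and cryptochrome family, 3 fell and 1 rose after UV-C in Col-0, beside 34.0% and 34.4% of all tested genes. The blue light receptor gene CRY1 fell by 1.83 ± 0.11 in both genotypes (edgeR, adjusted p = 7.2e-15 and 8.1e-15). PHR2, a photolyase-like gene, fell by 1.14 ± 0.13 in Col-0 (adjusted p = 4.1e-09), and CRY2 by 1.07 ± 0.13 (adjusted p = 2.3e-08). CRY3, a cryptochrome with repair activity on single-stranded DNA, rose by 0.35 ± 0.14 in Col-0 (adjusted p = 0.027) and gave 0.15 ± 0.14 in Δlinda (adjusted p = 0.32).

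Of 7 light and UV-B control genes, 1 rose and 2 fell after UV-C in Col-0, and 1 rose and 5 fell in Δlinda, where 34.4% and 34.0% of all tested genes did so in Col-0 and 34.6% and 33.6% in Δlinda. By edgeR 0 of the 7 passed for the interaction of genotype and UV-C, against 0.0374% of all tested genes. An unadjusted p under 0.05 was reached by 3 of the 7 and by 1596 of the 21374 tested genes. HYH, a transcription factor close to HY5, rose by 2.38 ± 0.22 in Col-0 (edgeR, adjusted p = 9.9e-11). The UV-B receptor gene UVR8 fell by 1.00 ± 0.09 in Col-0 (adjusted p = 2.7e-11) and COP1, the ligase gene that acts with it, by 0.44 ± 0.09 (adjusted p = 0.0001). HY5, known to act on photolyase genes in light, gave -0.10 ± 0.22 in Col-0 (adjusted p = 0.71) and fell by 1.04 ± 0.22 in Δlinda (adjusted p = 0.00013), and the difference between these responses, -0.94 ± 0.31, did not pass (adjusted p = 0.47). Between the controls, 6 of the 7 were higher in mock than in normal light in Col-0, where 28.3% of all tested genes were, HY5 by 2.44 ± 0.20 (adjusted p = 2.9e-11) and HYH by 2.85 ± 0.22 (adjusted p = 1.2e-11), in the same comparison in which root markers differed.

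**Figure D5:**
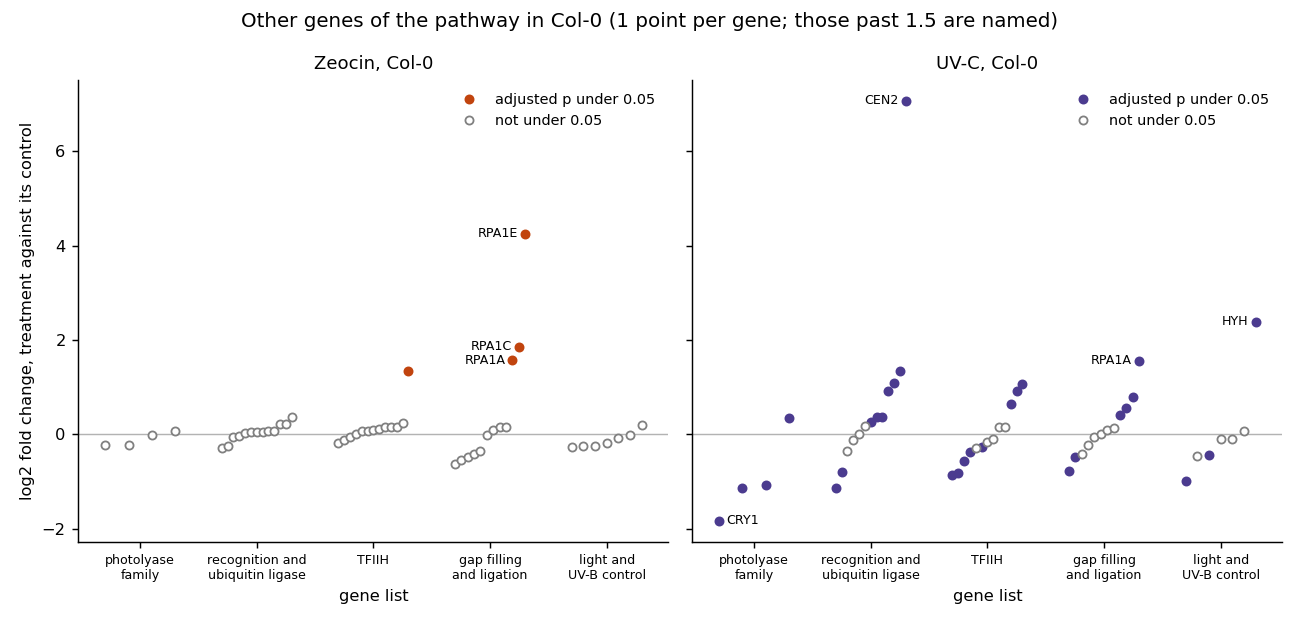
Log2 fold change (y axis) of 49 other genes of the pathway in Col-0 after Zeocin against mock (left) and UV-C against normal light (right), grouped by list on the x axis, with 1 point per gene. Filled points passed an adjusted p under 0.05 by edgeR, open points did not, and genes past 1.5 in size are named. After Zeocin 4 genes are filled, RPA1E the highest, and after UV-C 16 are filled above 0 and 14 below; the position of CEN2, with 2 counts over the normal light libraries, depends on the fit and is no measured fold.

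Levels of PHR1, UVR3 and DDB2 were compared with those of all other tested genes by Pearson's r of log2(CPM + 0.5) over the 30 libraries, which share the split between mock or Zeocin and normal light or UV-C. Closest to PHR1 were AT2G42570 (TBL39, r = 0.949), AT3G05020 (ACP1, 0.934) and AT1G62975 (0.933). UVR3 was closest to AT2G46800 (ZAT, r = 0.931), AT1G62770 (0.924) and HY5 (AT5G11260, 0.922), and DDB2 to AT1G60680 (r = 0.982), AT4G34600 (0.969) and EXPA9 (AT5G02260, 0.968). Within the 14 mock and Zeocin libraries these r were lower, from -0.26 to 0.75, and within the 16 normal light and UV-C libraries they were 0.57 to 0.83.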

How the data were processed

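Per the submitters' processing notes, Trimmomatic 0.38.0, FastQC 0.72 and Salmon 0.14.1.2 were used on the reads; the transcript set and build are not given in the sources used here. Unnormalised estimated counts of 68575 identifiers in 30 libraries make up the deposited table. In it, estimates that were not whole had lost their decimal mark, as read from the values. The mark was put back per gene by the most likely placement over all libraries, replicates being given a common level: 108156 of 723692 entries above 0 (14.95%) received decimals, and 2400 identifiers with an unclear placement were left out. Of the 10 genes, PHR1, CHR8, CSA-1 and UVH1 had 2, 7, 6 and 5 such entries. The placement can draw replicates together.

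After rounding, the restored counts went into edgeR 4.0.16 (R 4.3.3): filterByExpr (count 10, total 15), TMM, 1 coefficient per group over all 30 libraries, and the robust quasi-likelihood F test, with Benjamini-Hochberg adjustment within each of 14 comparisons. SEs were derived from the fold and its F value. Levels are CPM after TMM as mean ± SD, and per kb of TAIR10.1 exon union. Code was tested on simulated data with known answers. Counting intervals leave out everything but counting error, and PCR copies of 1 molecule are not independent. Libraries of a group differed by more than counting noise in all 42 pairs, with a chi-square per gene of 4.39 or more.

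Groups follow the titles, and the labels give no batch. The library mock Col-0 replicate 1 carries Δlinda in its genotype tag and Col-0 in its title. The treatment text swaps the words for mock and Zeocin. Alternatives were DESeq2 1.42.0, its size factors, no filter, each library left out, a replicate block, only the groups compared, decimals placed without the groups or kept where unclear, and organelle and ribosomal RNA genes left out. The rule for names was all 10 genes and, in each list, up to 4 genes with the smallest adjusted p in a treatment comparison. Members and lists were chosen with earlier results of these data known. The build of the deposited table is unnamed, so neither coordinates nor sequences are given.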

Additional observations from a re-analysis of the deposited data

Results flagged for a closer look

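In 60 sets of 4 replicate libraries (10 genes in the 6 groups of 4), 4 sets held 1 library whose gap to the nearest other was, as a share of the whole range, above Dixon's 95% critical value, and chance flags about 1 in 20 sets. PHR1 in UV-C Col-0 stood at 4.26 CPM in replicate 4 and at 5.50 to 5.62 CPM in the others. UVR3 in UV-C Δlinda was at 2.08 CPM in replicate 4 and at 1.32 to 1.40 CPM in the others. RAD4 in UV-C Col-0 was at 12 CPM in replicate 2 and at 8.25 to 8.69 CPM in the others, still below every normal light library. UVH6 in mock Col-0 was at 9.37 CPM in replicate 2 and at 12.8 to 13.3 CPM in the others.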

How the results depend on the processing

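No log2 fold of a member that passed changed sign under any setting run. With each library left out in turn, the number of members called stayed at 1 for Zeocin in both genotypes, at 0 for genotype and both interactions, and at 3 for mock against normal light in Δlinda. It ran from 5 to 7 for UV-C in Col-0 and from 4 to 7 in Δlinda, from 3 to 7 for Zeocin against UV-C responses in Col-0 and from 3 to 5 in Δlinda, and from 3 to 4 for mock against normal light in Col-0, where all libraries gave 5. With unclear decimals kept, Zeocin against UV-C responses in Δlinda had 5 members in place of 3, and without the filter on low counts mock against normal light in Col-0 had 3 in place of 5. The other settings kept each count within 1.5 times, but not always the same members. For Zeocin against UV-C responses in Col-0, DESeq2's size factors in edgeR gave 2 up and 3 down, in place of 4 and 1. PHR1 (edgeR, adjusted p = 0.055) and DDB2 (0.065) dropped out there, and UVH6 (0.027) and UVH3 (0.031) came in. DESeq2 itself ended that DDB2 call (adjusted p = 0.054) and brought in UVH6 and UVH3 (0.026 each). It also ended the ERCC1 call for mock against normal light in Col-0 (0.07). Replicate numbers did not pair the samples: same-numbered libraries had correlations of -0.44 to 0.25 over 28 pairs, own number best in 11. With the replicate block, 6 members were called for UV-C in Col-0, 7 for UV-C in Δlinda and 4 for mock against normal light in Col-0, and the other member counts were as without it. Over all tested genes, Zeocin in Col-0 gave 1119 calls and ran from 615 (only its groups fitted) to 1509 (without Zeocin Col-0 replicate 1), with 695 without Zeocin Col-0 replicate 2, 746 without Zeocin Col-0 replicate 3 and 1315 by DESeq2. Genotype calls moved most: 53 in Zeocin ran from 5 (decimals placed without the groups) to 743 (without Zeocin Col-0 replicate 1), 41 in normal light from 10 to 175, 5 in mock from 0 to 14, 5 in UV-C from 1 to 13, and the interactions from 0 to 15 around 9 for Zeocin and from 0 to 28 around 8 for UV-C. Settings were varied for the 10 genes and not for the other listed genes. Depth limits UVR3 most, at 15 to 50 counts in normal light and UV-C libraries.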
